A study of Mus musculus with 27 samples.

Results

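The genes examined here encode the nuclear part of the mitochondrial respiratory chain. They were all rows of the 2 gene count tables whose symbol begins with Nduf, Sdh, Uqcr, Cox4, Cox5, Cox6, Cox7, Cox8 or Atp5, which gave 99 of 22855 rows. Of these, 80 encode subunits (36 of complex I, 4 of complex II, 8 of complex III, 17 of complex IV and 15 of complex V), 15 encode assembly factors or proteins that are not core subunits, and 4 are annotated pseudogenes. The rule used names and no measured value.

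RNA was sequenced from whole heart and from cardiac fibroblasts of C57Bl/6 mice at 5 ages, neonatal (P1), 4 weeks (4W), 14 weeks (14W), 1 year (1Y) and 1.5 years (1.5Y). Whole heart had 3 samples at every age. Fibroblasts had 3 samples at P1 and at 4W and 2 samples at each later age. The fibroblasts were sorted from dissociated ventricles by flow cytometry for PDGFRα, a receptor that marks resident cardiac fibroblasts, so they are a gated population and not all cells of the connective tissue. All mice were of 1 strain, without a transgene or treatment. The study's methods describe separate animals and separate fibroblast isolations at each age, while the labels do not tie a sample to an animal.

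Total counts ranged from 46091271 to 67984404 in heart and from 54615898 to 76758831 in fibroblasts. The summed level of 10 cardiomyocyte markers was 42072 to 103585 CPM (counts scaled to the size of the library) in heart and 17.7 to 845 CPM in fibroblasts, and that of 8 fibroblast markers was 904 to 2419 CPM in heart and 23136 to 67353 CPM in fibroblasts. Levels are CPM after scaling within each tissue by the trimmed mean of M values (TMM). This scaling divides each count by a library size adjusted so that most genes do not differ. Xist, which is transcribed in female cells, was at most 0.570 CPM in every 14W and 1Y sample, and the Y-linked Ddx3y was at most 0.397 CPM in every 1.5Y sample. Age at 1.5Y against 14W and the sex of the animals therefore cannot be told apart. At P1 all 4 sex markers, from Xist and the Y chromosome, reached 1 CPM in every sample. At 4W they did so in heart replicates 1 and 2 and fibroblast replicates 2 and 3, but not in heart replicate 3 or fibroblast replicate 1. The sex make-up thus also differed between 4W and 14W and may differ between P1 and 4W. Its part in these steps was not tested.

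The respiratory chain passes electrons from NADH (complex I) and succinate (complex II) through complexes III and IV to oxygen, and ATP synthase (complex V) uses the resulting proton gradient to make ATP. Most subunits are encoded in the nucleus and imported, and a few are encoded by the mitochondrial genome. Cardiomyocytes are among the cells richest in mitochondria, and the heart moves from glycolysis toward fatty acid oxidation after birth. Of the complex IV subunits, 3 exist as a form of heart and skeletal muscle (Cox6a2, Cox7a1, Cox8b) and a form of other tissues (Cox6a1, Cox7a2, Cox8a).

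The 99 genes held a far larger part of the RNA in heart than in fibroblasts at every age. Their share of all counts in heart was 4.53% ± 0.325 (SD, n = 3) at P1, 5.54% ± 1.19 at 4W, 4.60% ± 0.219 at 14W, 5.22% ± 0.464 at 1Y and 7.35% ± 1.33 at 1.5Y. In fibroblasts the mean share lay between 0.308% (14W) and 0.430% (P1), so heart was 10.5-fold (P1) to 23.5-fold (1.5Y) higher. In whole heart, a bulk tissue, more cells of a type and more RNA per cell cannot be told apart.

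ATP synthase held the largest summed level of the complexes in both tissues at P1 and at 4W. In heart its 15 genes summed to 13073 ± 1245 CPM (SD, n = 3) at P1 and 21161 ± 4012 CPM at 4W. Complex I summed to 7259 ± 711 CPM at P1 and 13372 ± 2731 CPM at 4W, complex IV to 6054 ± 707 and 11080 ± 2558 CPM, complex III to 3214 ± 341 and 5853 ± 1110 CPM, and complex II to 1764 ± 131 and 3190 ± 416 CPM. The 15 assembly genes were lower, at 455 ± 25.7 and 555 ± 53.6 CPM. The ratio of the 4W to the P1 mean was between 1.62 (complex V) and 1.84 (complex I) for the complexes and 1.22 for the assembly genes. Per kilobase of transcript, which permits a comparison between genes, the highest mean levels of each complex in heart were those of Cox6a2 (complex IV, 3857 CPM per kilobase), Atp5b (the catalytic β subunit of complex V, 2753), Uqcrh (complex III, 1383), Ndufb9 (complex I, 1224) and Sdhb (the iron-sulfur subunit of complex II, 767). In fibroblasts Atp5b (195 CPM per kilobase) and Uqcrh (97.5) were again highest in their complexes, while Cox6a1 (124), Ndufa6 (67.1) and Sdha (45.6) led complexes IV, I and II. Reads that also match a near-identical copy may not have been counted, so the levels of Atp5l, Ndufab1 and Uqcrh, whose pseudogenes are in the tables, are uncertain.

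**Figure D1:**
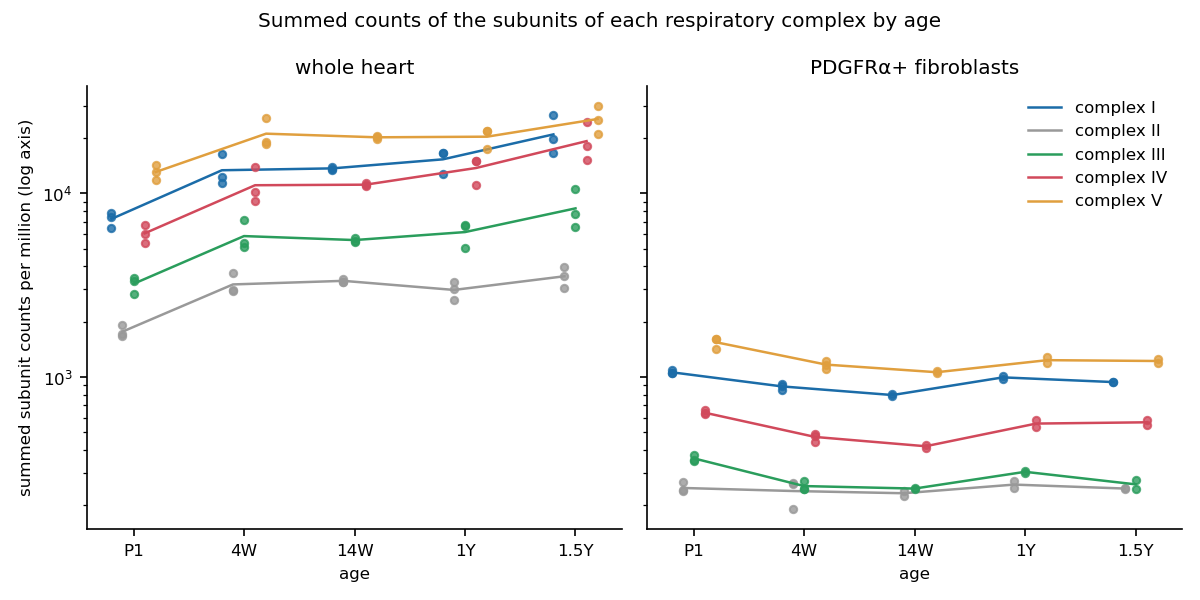
Summed level of the subunit genes of each complex, in CPM on a log axis, in every heart and fibroblast sample at the 5 ages. Points are samples and lines join the means. Heart lies above fibroblasts for all complexes. In heart complexes I to IV have a 4W mean 1.81 to 1.84 times their P1 mean, and the 1.5Y samples are spread widely.

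Between birth and 4 weeks transcripts of most chain genes rose in heart. Of the 99 genes, 65 rose and 2 fell from P1 to 4W (edgeR quasi-likelihood test, Benjamini-Hochberg adjusted over 17995 genes), while 12.1% of all genes tested rose and 6.1% fell. The median log2 fold change was 0.77 over the 99 genes and -0.09 over all genes. By complex, 31 of 36 genes of complex I, 3 of 4 of complex II, 6 of 8 of complex III, 10 of 17 of complex IV and 12 of 15 of complex V rose, as did 3 of 15 assembly genes and 0 of 4 pseudogenes. Both genes that fell belong to complex IV.

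In complex I, the NADH dehydrogenase, the largest rise was that of Ndufs7, which encodes an iron-sulfur subunit at the end of the electron path. Ndufs7 was at 219, 160 and 186 CPM at P1 and at 372, 624 and 412 CPM at 4W. The groups did not overlap, and the log2 fold change was 1.32 (SE 0.22, adjusted p = 0.000328). The smallest called rise was that of the accessory subunit Ndufa6, at 0.64 (SE 0.16, adjusted p = 0.0118). The median over the 36 genes was 0.85.

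Complex II, succinate dehydrogenase, is also an enzyme of the citric acid cycle. Its flavoprotein Sdha was at 714, 636 and 622 CPM at P1 and at 1379, 1438 and 1259 CPM at 4W (log2 fold change 1.05, SE 0.12, adjusted p = 7.02e-06). Sdhb rose by 0.97 (SE 0.20) and the membrane anchor Sdhc by 0.88 (SE 0.17). The other anchor, Sdhd, was at 387, 363 and 414 CPM at P1 and 391, 547 and 438 CPM at 4W, groups that overlap, a difference of 0.24 on the log2 scale (SE 0.14, adjusted p = 0.272).

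In complex III, the cytochrome bc1 complex, the core protein Uqcrc1 changed most. It was at 762, 621 and 695 CPM at P1 and 1442, 2101 and 1425 CPM at 4W (log2 fold change 1.26, SE 0.19, adjusted p = 0.000133). The partner core protein Uqcrc2 rose by 0.50 (SE 0.14, adjusted p = 0.0213), less than any other called gene of the complex. In complex V the 3 genes for the c subunit of the membrane rotor, which encode the same mature peptide behind different import signals, did not move alike. Atp5g1 was at 630, 497 and 611 CPM at P1 and 996, 1561 and 1149 CPM at 4W, a rise of 1.09 on the log2 scale (SE 0.19, adjusted p = 0.000653). Atp5g3, at a higher level, rose by 0.64 (SE 0.18, adjusted p = 0.0186). Atp5g2 was between 56.4 and 63.0 CPM at P1 and between 45.2 and 74.0 CPM at 4W, a difference of 0.03 on the log2 scale (SE 0.20, adjusted p = 0.955). The differences between these 3 genes were not tested. Among assembly genes, the complex I assembly factors Ndufaf3 (0.96, SE 0.22) and Ndufaf1 (0.86, SE 0.20) rose.

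**Figure D2:**
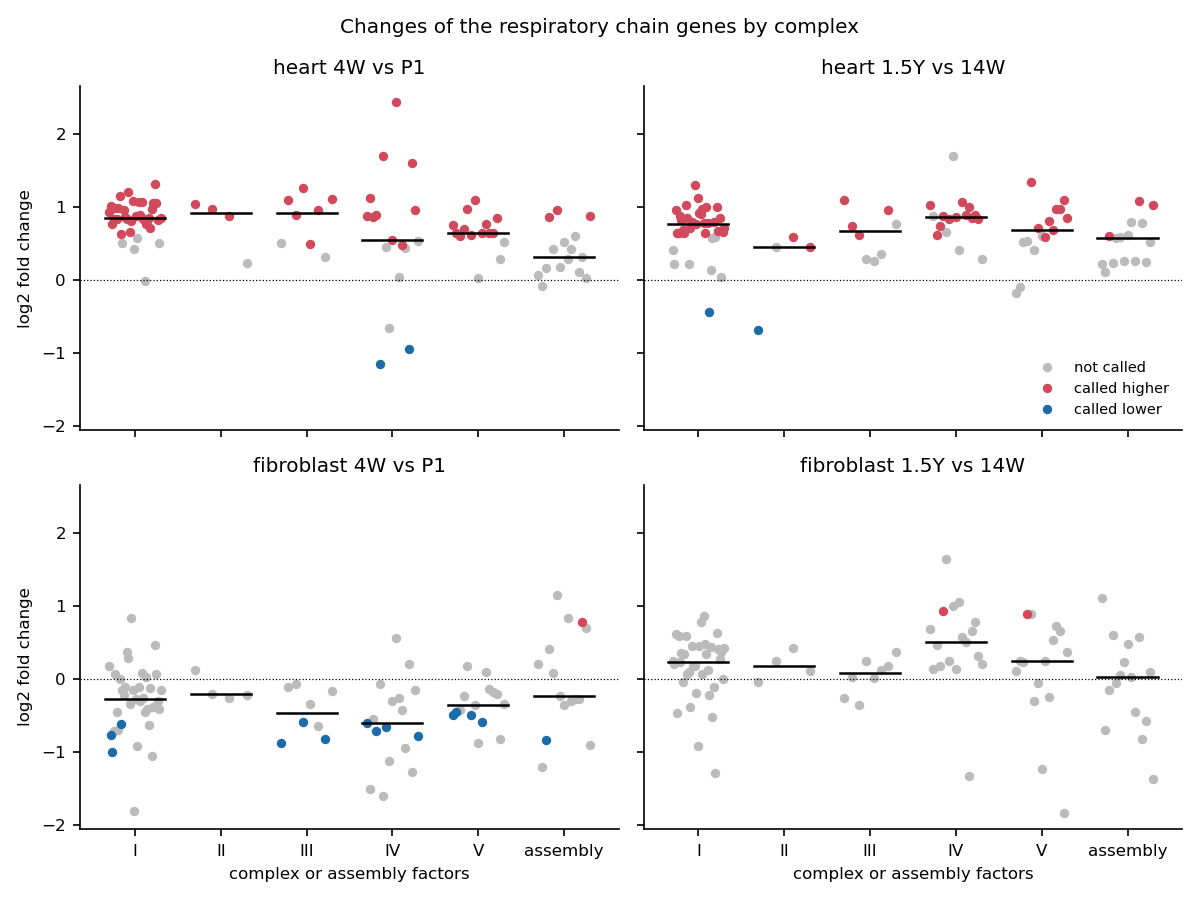
Log2 fold change of each gene, grouped by complex, in heart and in fibroblasts for the age steps 4W against P1 and 1.5Y against 14W. Red points were called higher and blue points lower at an adjusted p under 0.05, and grey points were not called. Black bars are medians, and the 4 pseudogenes are not drawn. In heart most points of all complexes lie above 0 at both steps (65 and 58 of 99 genes called higher), with Cox6a1 and Cox8a below 0 at the first and Sdha and Ndufs1 at the second.

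Complex IV, cytochrome c oxidase, was where genes of 1 complex moved in opposite directions. The muscle isoforms rose and 2 of the 3 non-muscle isoforms fell from P1 to 4W. Cox6a2 was at 931, 591 and 735 CPM at P1 and 1973, 3268 and 2085 CPM at 4W (log2 fold change 1.70, SE 0.23, adjusted p = 4.35e-05). Its partner Cox6a1 was at 310, 259 and 238 CPM at P1 and 101, 139 and 123 CPM at 4W (log2 fold change -1.15, SE 0.18, adjusted p = 0.000265). Neither pair of age groups overlapped.

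Cox7a1 showed the largest change of all 99 genes, from 132, 105 and 101 CPM at P1 to 506, 753 and 584 CPM at 4W (log2 fold change 2.45, SE 0.25, adjusted p = 2.78e-06). Its partner Cox7a2 was at 385, 315 and 383 CPM at P1 and 302, 466 and 349 CPM at 4W, which overlap (log2 fold change 0.04, SE 0.19, adjusted p = 0.917). Cox8b went from 189, 148 and 198 CPM to 429, 712 and 482 CPM (log2 fold change 1.60, SE 0.23, adjusted p = 9.35e-05). Cox8a went the other way, from 294, 266 and 229 CPM to 115, 176 and 120 CPM (log2 fold change -0.94, SE 0.20, adjusted p = 0.00324). Thus the muscle form rose in each of the 3 pairs, and the level of the other form fell, except for Cox7a2.

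The pairs can be read within a library, where the scaling between libraries drops out. Cox6a2 made up 73.4% ± 3.33 (SD, n = 3) of the Cox6a1 and Cox6a2 counts in P1 heart and 95.2% ± 0.756 at 4W. Cox7a1 made up 23.8% ± 2.60 and 62.3% ± 0.475 of its pair, and Cox8b 40.4% ± 5.47 and 79.7% ± 0.732. The gains of 21.8, 38.5 and 39.2 percentage points each had no overlap between the ages. The exact two-sided permutation test of 3 against 3 samples gave p = 0.1 for each, the smallest it can give (0.267 adjusted over 24 such tests). In counts per kilobase of transcript, the P1 and 4W shares were 69.8% and 94.3% for Cox6a2, 34.3% and 73.5% for Cox7a1 and 50.8% and 85.7% for Cox8b.

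After 4W the shares moved less. At 14W they were 97.3% ± 0.238, 71.3% ± 2.98 and 85.3% ± 0.603 for Cox6a2, Cox7a1 and Cox8b, each above 4W without overlap (p = 0.1, exact permutation test, the smallest possible). The share of Cox7a1 was lower again at 1Y (61.9% ± 2.42) and at 1.5Y (60.6% ± 4.72), both without overlap with 14W (exact permutation test, p = 0.1 each). Cox6a2 and Cox8b at those ages overlapped with 14W. In fibroblasts the muscle forms made up means of 1.25% to 11.0% of their pairs. The highest of these was Cox6a2 at P1, where the cardiomyocyte markers of the fibroblast samples summed to 771 to 845 CPM, against 17.7 to 204 CPM at later ages. Per sample these shares carry 95% binomial (Wilson) intervals of at most ± 0.490 percentage points in heart and ± 1.55 in fibroblasts, which cover counting error only.

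**Figure D3:**
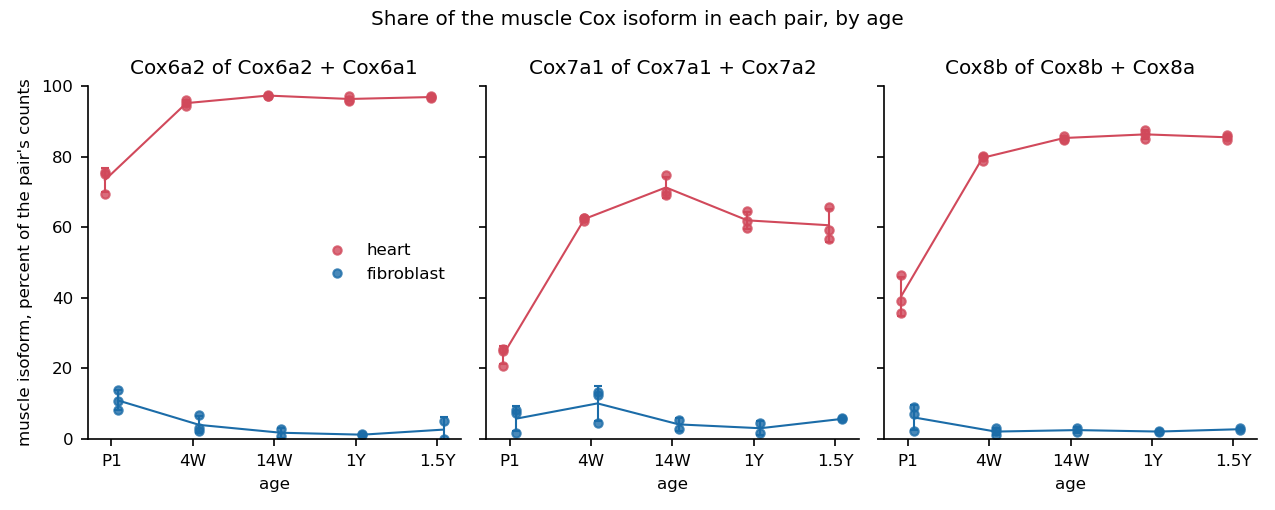
Share of the muscle isoform in the counts of each pair (Cox6a2 of Cox6a1 and Cox6a2, Cox7a1 of Cox7a1 and Cox7a2, Cox8b of Cox8a and Cox8b), in percent, for each heart and fibroblast sample by age. In heart all 3 shares step up between P1 and 4W by 21.8 to 39.2 points, and in fibroblasts they are at most 13.9%.

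The summed cardiomyocyte markers in heart also differed between these ages, at 42072 to 50092 CPM at P1 and 72417 to 88277 CPM at 4W, and 7 of the 10 markers rose. The median of that sum was 44045 CPM at P1 and 81516 CPM at 4W. Over the same step the summed level of all chain genes had a 4W mean 1.74 times the P1 mean. Only the muscle isoforms were divided by the marker sum, sample by sample. Per 1000 CPM of marker, Cox6a2 was at 14.0 to 18.6 CPM at P1 and 24.2 to 37.0 CPM at 4W, Cox7a1 at 2.29 to 2.64 and 6.20 to 8.53 CPM, and Cox8b at 3.52 to 4.50 and 5.26 to 8.07 CPM. None of these ranges overlapped between P1 and 4W. Markers of other cell types differed too, with 6 macrophage markers summing to 47.1 to 71.3 CPM at P1 and 269 to 336 CPM at 4W and 6 endothelial markers to 510 to 748 and 943 to 1141 CPM. The part of these cell types and of cardiomyocytes in the rise of the chain genes was not tested.

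Since the partners of a pair differed in their change, the sequence in front of their genes is shown. The 250 bases before the annotated start (RefSeq, GRCm38.p6, gene strand, 5′ to 3′) are printed with every CG dinucleotide in capitals, because promoters of widely used genes tend to be rich in CG and those of tissue-restricted genes less so. The windows are chr7:30183921-30184170 (+) for Cox7a1, chr9:79759854-79760103 (-) for Cox7a2, chr7:140900447-140900696 (-) for Cox8b, chr19:7217617-7217866 (-) for Cox8a and chr5:115348959-115349208 (-) for Cox6a1.
Cox7a1: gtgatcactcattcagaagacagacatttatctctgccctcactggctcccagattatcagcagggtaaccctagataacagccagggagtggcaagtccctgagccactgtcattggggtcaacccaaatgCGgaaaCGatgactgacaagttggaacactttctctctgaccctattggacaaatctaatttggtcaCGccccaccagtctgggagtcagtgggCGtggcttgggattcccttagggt
Cox7a2: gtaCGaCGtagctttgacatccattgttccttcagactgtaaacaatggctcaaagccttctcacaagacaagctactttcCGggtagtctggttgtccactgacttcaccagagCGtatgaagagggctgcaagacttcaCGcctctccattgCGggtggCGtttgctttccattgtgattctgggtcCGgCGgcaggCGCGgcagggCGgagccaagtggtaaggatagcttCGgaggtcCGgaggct
Cox8b: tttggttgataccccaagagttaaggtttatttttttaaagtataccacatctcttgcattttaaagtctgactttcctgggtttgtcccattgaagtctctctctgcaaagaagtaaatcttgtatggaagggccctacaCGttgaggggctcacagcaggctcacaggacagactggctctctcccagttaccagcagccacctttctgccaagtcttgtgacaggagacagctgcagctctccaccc
Cox8a: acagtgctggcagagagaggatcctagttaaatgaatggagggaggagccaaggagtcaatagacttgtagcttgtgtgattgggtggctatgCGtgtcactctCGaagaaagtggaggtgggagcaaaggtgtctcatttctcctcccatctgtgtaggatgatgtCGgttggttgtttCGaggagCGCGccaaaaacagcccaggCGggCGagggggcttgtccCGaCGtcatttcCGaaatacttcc
Cox6a1: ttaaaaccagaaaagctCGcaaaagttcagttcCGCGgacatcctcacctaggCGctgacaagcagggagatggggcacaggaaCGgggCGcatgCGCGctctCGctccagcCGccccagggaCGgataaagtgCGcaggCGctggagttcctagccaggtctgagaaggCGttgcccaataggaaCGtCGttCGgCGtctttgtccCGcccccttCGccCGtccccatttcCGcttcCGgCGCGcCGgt
The capitals mark 4 CG in front of the muscle gene Cox7a1 against 14 in front of Cox7a2, and 1 in front of the muscle gene Cox8b against 11 in front of Cox8a. The Cox6a1 window held 26, and no window was found for its muscle partner Cox6a2, so this pair cannot be compared. A window was found for 65 of the 80 subunit genes, whose median was 14 CG (range 1 to 35), and the median over all 27025 gene windows was 6. Cox8b had the lowest number of the 65, and Cox7a1 and Ndufc2 followed with 4 each. These are counts in sequence and were not measured in the heart.

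Motifs of factors known for these genes were searched on both strands of the same windows. The core of the NRF1 site (CGCATGCG) was in 9.23% of the 65 subunit windows and 1.58% of all windows, the core of the ETS site bound by GABP (CCGGAAG) in 16.9% and 7.05%, and the estrogen-related receptor half-site (AAGGTCA) in 7.69% and 4.05%. The MCAT motif of TEAD factors (CATTCCT) was in 3.08% and 4.43%, and the MEF2 motif in 0 of 65 and 3.01% of all windows. The subunit windows were richer in CG (median 14 against 6 in all windows) and in G and C (median 56.4% against 52.0%). The NRF1 and ETS cores contain CG, and the windows compared were not matched for base composition. These percentages therefore cannot tell motif content from base composition. Of the 5 printed windows, that of Cox6a1 held matches. It has the NRF1 core at bases -161 to -154 and the ETS core at -16 to -10 from the start.

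The other complex IV pairs gave a mixed picture at 4W. Cox4i1, the form of most tissues, rose by 0.88 (SE 0.21, adjusted p = 0.00712), from 819 to 1011 CPM at P1 to 1339 to 2178 CPM at 4W. Cox4i2, a form known from lung and hypoxia, rose by 1.13 (SE 0.29, adjusted p = 0.0112) but lay between 4.72 and 12.5 CPM in all 6 samples. Ndufa4, a subunit of complex IV despite its name, rose by 0.96 (SE 0.19, adjusted p = 0.00186), and its paralogue Ndufa4l2, known as a hypoxia gene, had a change of 0.54 (SE 0.21, adjusted p = 0.0919). Cox6b1 (0.45, SE 0.19) and the testis form Cox6b2 (-0.65, SE 0.74, at most 5.63 CPM) did not pass the test.

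The size of the rise depended on the scaling. With library size alone, 17 of the 99 genes rose and 4 fell from P1 to 4W, while 5.45% of all genes tested rose and 21.1% fell, and the median log2 fold change of the 99 genes was 0.26 and that of all genes -0.60. Relative to all genes the median was 0.85 with TMM and 0.86 with library size alone. Under library size alone the summed levels of the complexes were 1.14 to 1.30 times as high at 4W as at P1.

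Genes of the pathway outside the name rule were followed too. At 4W against P1 12.1% of all genes tested rose and 6.1% fell. Of 10 other chain parts tested, 6 rose and 1 fell over this step. Among the 6 were the electron carrier cytochrome c (Cycs, 0.73, SE 0.17) and the complex III subunit Cyc1 (0.72, SE 0.17). Of 32 other assembly factors, 14 rose and 0 fell. Of 15 transcriptional regulators of mitochondrial genes, 4 rose, which were the estrogen-related receptors Esrra (0.81, SE 0.17) and Esrrb (1.67, SE 0.21) and the fatty acid sensing receptors Ppara (1.07, SE 0.34) and Ppard (1.27, SE 0.17). The coactivator Ppargc1a (-0.31, SE 0.35, adjusted p = 0.619) did not pass the test.

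From 4W to 14W the heart's chain transcripts showed no call. The edgeR quasi-likelihood test called 0 of 99 genes in each direction (0.756% of all genes rose and 0.85% fell), 3 of 99 genes had an unadjusted p under 0.05, and DESeq2 called 1 gene. The median log2 fold change was -0.0042. From 14W to 1Y, 1 gene rose and 1 fell (0.389% and 0.583% of all genes). Cox7b, a small complex IV subunit, was at 688, 674 and 644 CPM at 14W and 1216, 1316 and 855 CPM at 1Y (log2 fold change 0.76, SE 0.16, adjusted p = 0.0368). Sdha was at 1416, 1434 and 1568 CPM at 14W and 989, 1061 and 1013 CPM at 1Y (log2 fold change -0.53, SE 0.12, adjusted p = 0.0399). Both calls are near the threshold. A fit of the compared groups alone called 22 genes, 20 of them higher (4.15% of all genes rose and 5.16% fell), and DESeq2 called 7. The count at 1Y was 0 or 1 without any one of the 14W or 1Y heart samples, and 0 also without 1.5Y replicate 2, 4W replicate 3, P1 replicate 2 or P1 replicate 3.

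At 1.5Y many chain genes in heart were again above 14W, and so were short transcripts outside the chain. Of the 99 genes 58 rose and 2 fell (4.91% and 7.86% of all genes tested). Their median log2 fold change was 0.72, and that of all genes -0.02. By complex, 28 of 36 genes of complex I, 2 of 4 of complex II, 4 of 8 of complex III, 12 of 17 of complex IV, 9 of 15 of complex V and 3 of 15 assembly genes rose. Transcripts of the chain are short. The median was 849.5 bases for the 98 of the 99 genes with an annotated length, and 59.2% of them were under 1000 bases, against a median of 2327 bases and 21.02% for all other genes.

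Other genes of the same length differed in the same direction at 1.5Y. The median log2 fold change of genes outside the chain was 0.57 for transcripts under 1000 bases, 0.33 from 1000 to 2000, -0.06 from 2000 to 4000 and -0.53 at 4000 or more. For the chain genes of these classes it was 0.85 (58 genes), 0.55 (28), 0.25 (9) and 0.71 (3). At 4W against P1 the same classes of other genes were at -0.13, -0.03, -0.09 and -0.11, with no such trend, while the chain genes were between 0.77 and 0.82 in all 4 classes. At 1Y against 14W the other genes ran from 0.38 (shortest) to -0.12 (longest), and the chain genes under 1000 bases were at 0.37.

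**Figure D4:**
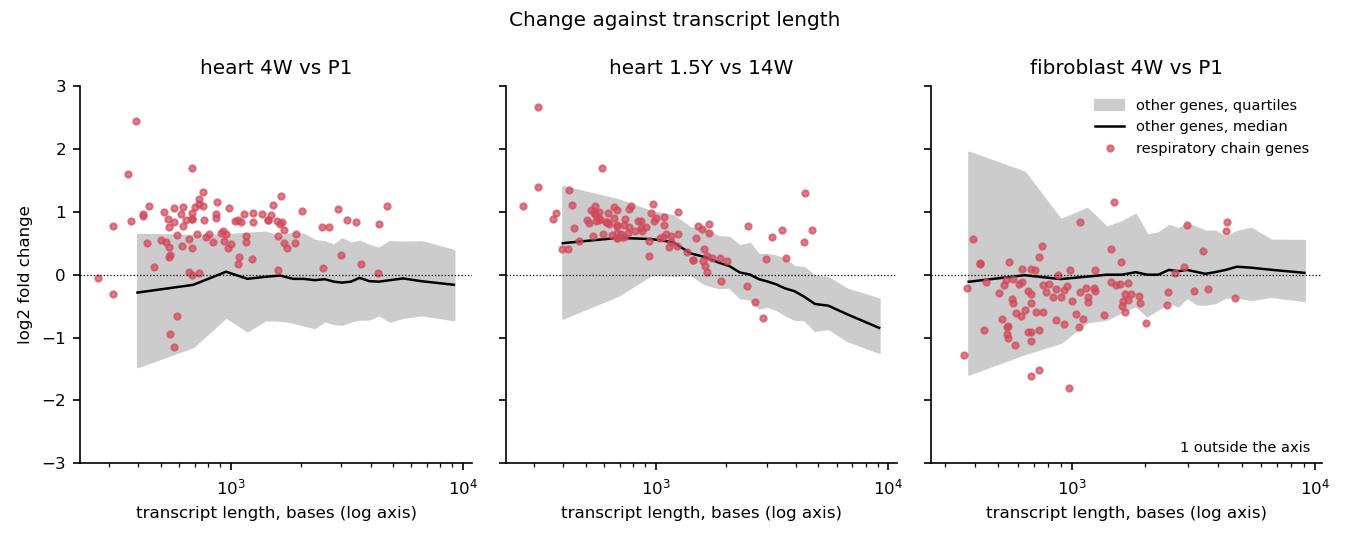
Log2 fold change by transcript length (log axis, bases) for the chain genes as points and for all other genes as the median of length bins, in heart and in fibroblasts, with 1 chain gene outside the axis in the fibroblast panel as marked. In heart the other genes slope downward at 1.5Y against 14W, from 0.57 in the shortest to -0.53 in the longest class, and are near 0 at all lengths at 4W against P1.

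The trend was also seen per library. The median deviation of short transcripts (under 1000 bases) from their mean over heart samples, minus that of long transcripts (4000 bases or more), was 0.43, 0.89 and 1.47 in the 3 samples of 1.5Y on the log2 scale, and -0.30, -0.30 and -0.42 at 14W. The median deviation of the chain genes in the same libraries was 0.37, 0.59 and 1.00 at 1.5Y and -0.02, -0.03 and -0.03 at 14W. The 1.5Y sample with the steepest length trend thus had the highest chain levels. The P1 samples broke this pattern, with a length trend (-0.21, -0.50 and -0.41) like that of 14W and chain deviations of -0.72, -0.91 and -0.75. What made the length trend was not tested.

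**Figure D5:**
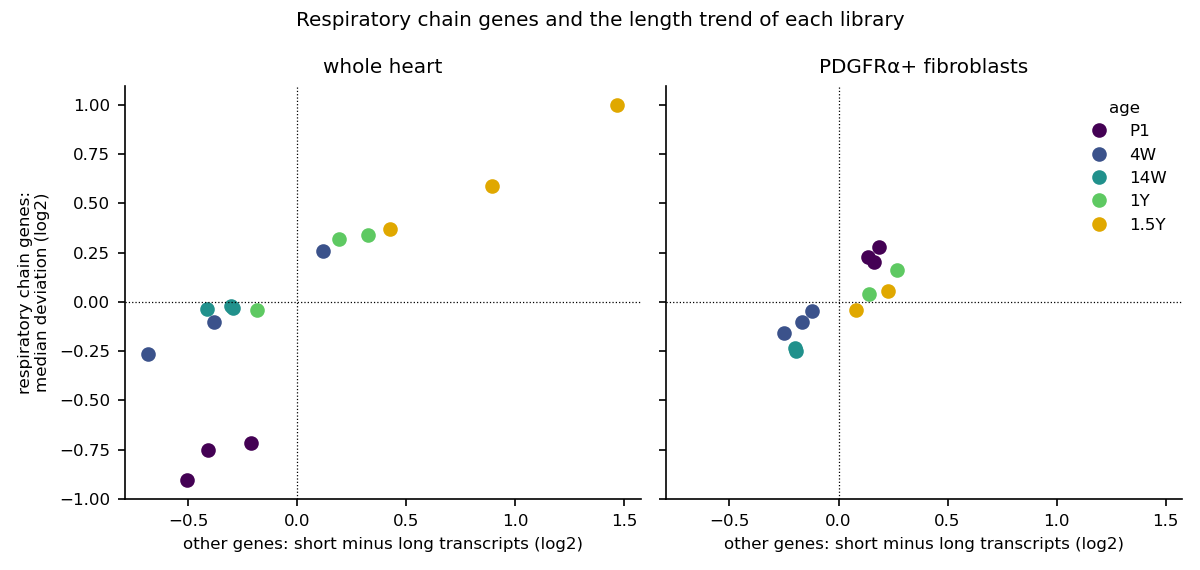
For each library, the median log2 deviation of the chain genes (vertical axis) against the difference between short and long transcripts among other genes (horizontal axis). The 3 heart samples of 1.5Y lie at the upper right, from 0.43 to 1.47 on the horizontal axis, and the 3 heart samples of P1 lie lowest, between -0.72 and -0.91 on the vertical axis.

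When the smoothed length trend of each library was entered as an offset in the fit, few chain genes were called at 1.5Y and most were called at 4W. At 1.5Y against 14W 4 of the 99 genes rose and 4 fell with the offset (1.92% and 2.25% of all genes tested), and the median of the 99 was 0.04. At 4W against P1 71 rose and 2 fell (12.7% and 8.07% of all genes), with a median of 0.71. By complex, the 4W counts with the offset were 33 of 36, 3 of 4, 7 of 8, 12 of 17 and 13 of 15 for complexes I to V. At 1.5Y they were 2 higher and 2 lower in complex I, 1 and 1 in complex II, 0 in complex III, 0 and 1 in complex IV and 1 and 0 in complex V. The gain of Cox6a2 at 4W was 1.60 and that of Cox7a1 2.40 with the offset, and Cox6a1 and Cox8a still fell, by 1.23 and 1.03 on the log2 scale.

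Sdha and Ndufs1 were below 14W at 1.5Y with and without the offset. Sdha was at 922, 949 and 869 CPM at 1.5Y, below every 14W and 1Y sample (log2 fold change against 14W -0.69, SE 0.12, adjusted p = 0.00162, and -0.61 with the offset, adjusted p = 0.00353). The complex I iron-sulfur subunit Ndufs1 was at 618, 622 and 663 CPM at 14W and 456, 475 and 480 CPM at 1.5Y (log2 fold change -0.43, SE 0.12, adjusted p = 0.0238, and -0.40 with the offset, adjusted p = 0.0355). Ndufs1 was called in 7 of 15 refits that left out 1 sample each. Cox7a1 (0.41, adjusted p = 0.264) fell by 0.60 on the log2 scale with the offset (adjusted p = 0.022), and the accessory subunit Ndufa1 by 0.54. The 4 genes that rose with the offset were Ndufb2 (1.71), Atp5g1 (1.18), Ndufab1 (0.92) and Sdhc (0.74). For all 4 the transcript whose length was used is longer than the median of the gene's transcripts. It is 4371 against 2413 bases for Ndufb2, 4715 against 2675.5 for Atp5g1, 3479 against 2447.5 for Ndufab1 and 3171 against 1993 for Sdhc. With the median transcript the offset left 7 genes called.

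The 1.5Y count also rested on single libraries. It was 25 (24 higher, 1 lower) without 1.5Y replicate 3, the sample with the steepest length trend, 31 without 14W replicate 1 or 14W replicate 3, 36 without 14W replicate 2, and 72 without 1.5Y replicate 1. Of the 3 Cox pairs, Cox6a1 (0.87), Cox7a2 (1.07), Cox8a (0.85) and Cox8b (0.89) rose and Cox6a2 (0.66, adjusted p = 0.0606) did not pass the test. With the offset Cox6a1, Cox8a, Cox8b and Cox6a2 were at 0.02, -0.02, -0.15 and -0.12. The red blood cell markers also rose at 1.5Y, 4 of 5, from a sum of 296 to 377 CPM at 14W to 689 to 1645 CPM, and the macrophage markers summed to 196 to 213 CPM at 14W and 305 to 460 CPM at 1.5Y. The part of both in the result was not tested.

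Without the offset, the regulators called at 1.5Y were below 14W. Of 15, 0 rose and 6 fell (4.91% and 7.86% of all genes tested). The 6 were Ppargc1a (-1.43, SE 0.36), Ppara (-1.35, SE 0.35), Esrrg (-1.32, SE 0.37), Gabpa (-1.20, SE 0.27), Yy1 (-0.68, SE 0.15) and Ppard (-0.64, SE 0.17). Their transcripts are 3277 to 6464 bases long. Genes outside the chain had a median of -0.06 at 2000 to 4000 bases and -0.53 at 4000 or more. With the offset Ppara was the single one called (-1.18, SE 0.32, adjusted p = 0.0487), while Ppargc1a was at -0.86 (adjusted p = 0.086), Esrrg at -0.87 and Gabpa at -0.74.

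In fibroblasts the chain did not follow the heart. Of the 99 genes, 96 passed the filter on low counts (3 pseudogenes had at most 28 counts in any fibroblast sample). From P1 to 4W 1 gene rose and 15 fell (9.28% and 6.2% of 18759 genes tested), and the median log2 fold change was -0.30. By complex, 3 of 36 genes of complex I, 0 of 4 of complex II, 3 of 8 of complex III, 4 of 17 of complex IV and 4 of 15 of complex V fell. The gene that rose was Sdhaf2, the assembly factor that helps attach the flavin of complex II (0.78, SE 0.23, adjusted p = 0.0333). Sdhaf2 was called in 1 of 12 refits that left out 1 sample each, and with the length offset it was at 0.71 (adjusted p = 0.0519).

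The catalytic subunit Atp5b was at 413, 506 and 486 CPM at P1 and 321, 368 and 338 CPM at 4W in fibroblasts (log2 fold change -0.45, SE 0.11, adjusted p = 0.0154). Uqcrc1 was at 96.3, 99.9 and 103 CPM at P1 and 65.8, 61.5 and 71.5 CPM at 4W (log2 fold change -0.59, SE 0.12, adjusted p = 0.00396). Cox7a2l, counted among the assembly genes, was at 83.7, 84.7 and 91.4 CPM at P1 and 52.0, 51.6 and 41.6 CPM at 4W (log2 fold change -0.84, SE 0.15, adjusted p = 0.00211). In all 3 genes the ages did not overlap. Ndufa11 of complex I fell most (-1.003, SE 0.24), and Uqcr10 (-0.88), Ndufa4l2 (-0.78), Cox6b1 (-0.66), Cox4i1 (-0.60) and Atp5g3 (-0.59) also fell.

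Fewer fibroblast genes were called with the length offset or without 1 of the samples. With the length offset 2 genes rose and 7 fell (8.51% and 6.93% of all genes), so the share that fell was close to that of all genes. Among the 7 were Atp5b (-0.46), Uqcrc1 (-0.56) and Cox7a2l (-0.71). The short minus long difference among other genes was 0.16, 0.14 and 0.19 in P1 fibroblasts and -0.25, -0.12 and -0.17 at 4W. The chain deviations in the same libraries were 0.20, 0.23 and 0.28 at P1 and -0.16, -0.05 and -0.10 at 4W. Without the offset and without 4W replicate 1 the count was 9, all lower. The P1 fibroblast samples held 771 to 845 CPM of cardiomyocyte markers and 6.15% to 9.18% of counts from the mitochondrial genome, against 72.1 to 204 CPM and 1.88% to 3.73% at 4W, and the part of these in the result was not tested. In heart 65 of the 99 genes rose over the same step. Of the 15 that fell in fibroblasts, 10 were among them, a share similar to that of all 99.

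At the later ages few fibroblast calls were made, with 2 samples a group. From 4W to 14W 3 genes rose and 2 fell (1.79% and 2.08% of all genes tested). The small complex V subunit Atp5l was at 5.78, 5.84 and 8.86 CPM at 4W and 29.3 and 32.8 CPM at 14W (log2 fold change 2.18, SE 0.45, adjusted p = 0.0185), and the complex I subunit Ndufs5 at 2.52, 2.23 and 6.20 CPM and 13.8 and 16.9 CPM (2.07, SE 0.50, adjusted p = 0.0391). Cox7a2l rose as well (0.82, SE 0.17). Atp5d, the δ subunit of the ATP synthase stalk, fell (-0.64, SE 0.13), as did the complex III subunit Uqcrq (-0.89, SE 0.22). DESeq2 called 9 genes and a fit of the 2 ages alone 2.

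From 14W to 1Y 3 genes rose and 0 fell (1.31% and 0.474% of all genes), Atp5d (0.96), Uqcrq (1.41) and Cox6a1 (0.74). From 14W to 1.5Y 2 rose and 0 fell (1.91% and 0.816%), Atp5d (0.88) and Cox6a1 (0.93), a share close to that of all genes. With the length offset Cox6a1 was at 0.32 (adjusted p = 0.501) at 1Y and 0.56 (adjusted p = 0.113) at 1.5Y, not called. A fit of the compared groups alone called 13 genes at 1Y and 4 at 1.5Y, and DESeq2 called 9 and 7. The shares of all genes under these alternatives are not given here. Atp5d was at 66.3 and 62.2 CPM at 14W and between 89.6 and 127 CPM in the other 10 fibroblast samples, so the 14W samples stood apart. These 3 comparisons made 0 calls without 14W replicate 4 or without 14W replicate 6, and the 1Y comparison made 0 without 1Y replicate 4 and 1 without 1Y replicate 5. The 14W count was 3 without 1.5Y replicate 4, 1Y replicate 4, 1Y replicate 5 or 4W replicate 2 and 2 without 4W replicate 1, and the 1.5Y count was 1 without 1.5Y replicate 4 or replicate 5.

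A direct comparison of the tissues at 4W put 95 of the 99 genes higher in heart and 0 lower (18.6% and 17.5% of 20650 genes tested), with a median log2 difference of 4.35. The study sequenced both the fibroblasts and the hearts that gave rise to them, so samples of the 2 tissues can share an animal. The labels do not say which do. The comparisons between tissues treated all samples as independent. The CPM values were scaled within each tissue, while the log2 differences come from a joint scaling of both tissues. They therefore need not match the ratio of the CPM values. The muscle isoforms differed most among the Cox genes. Cox6a2 was at 1973, 3268 and 2085 CPM in heart and 2.00, 1.54 and 5.16 CPM in fibroblasts (log2 difference 10.08, SE 0.85), Cox8b at a difference of 9.13 (SE 0.53) and Cox7a1 at 8.19 (SE 0.59). The partners were closer. Cox6a1 was at 101, 139 and 123 CPM in heart and 62.2, 68.7 and 71.5 CPM in fibroblasts (1.19, SE 0.17) and Cox8a differed by 1.70 (SE 0.20), while Cox7a2 differed by 4.32 (SE 0.19). With the length offset Cox6a1 was at -0.26 (adjusted p = 0.14) and Cox8a at 0.20 (adjusted p = 0.26), neither called, and Cox6a2 at 8.72.

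The 4W step itself was compared between the tissues in 1 fit over all 27 samples. The test was of the signed difference of log2 fold changes from P1 to 4W, heart minus fibroblasts. This difference was called positive for 56 of the 99 genes and negative for 2 (3.96% and 3.18% of genes tested). The 2 were Cox6a1 (difference of log2 fold changes -1.07, SE 0.24, adjusted p = 0.00611) and Cox8a (-1.14, SE 0.27, adjusted p = 0.010). Cox6a2 (3.32, SE 0.84), Cox8b (2.88, SE 0.55), Cox4i2 (2.64, SE 0.62), Uqcrc1 (1.85, SE 0.24) and Atp5g1 (1.46, SE 0.31) were among the 56. By complex the 56 held 24 genes of complex I, 3 of complex II, 7 of complex III, 11 of complex IV and 9 of complex V. With library size alone the difference was positive for 26 genes and negative for 3 (2.15% and 8.08% of genes tested).

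The same signed difference for the step from 14W to 1.5Y was called positive for 7 genes and negative for 0 (0.794% and 1.91% of genes tested). The 7 were Atp5l (2.96, SE 0.50), Cox7c (2.35, SE 0.44), Ndufs5 (1.90, SE 0.46), Atp5g2 (1.85, SE 0.41), Uqcr10 (1.38, SE 0.34), Ndufab1 (1.12, SE 0.30) and Uqcrb (1.01, SE 0.27). Atp5l in fibroblasts was at 29.3 and 32.8 CPM at 14W and 6.47 and 10.8 CPM at 1.5Y, and in heart at 54.1, 49.6 and 51.1 CPM and 86.0, 103 and 142 CPM. This count was 2 without fibroblast 14W replicate 4 or 1.5Y replicate 5, 3 without fibroblast 14W replicate 6, heart 14W replicate 2 or 3 or heart 1.5Y replicate 3, 4 without heart 14W replicate 1, and 11 without heart 1.5Y replicate 1.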

How the data were processed

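The authors mapped single-end reads of polyA RNA to mm10 with STAR 2.5.3a and counted reads per gene; the annotation and strand setting are not given in the sources used here. The deposited values are raw counts for 22855 genes, of which all 27 sample columns were used. Counts were fitted with edgeR 4.0.16 (R 4.3.3; filterByExpr, TMM, quasi-likelihood F test, Benjamini-Hochberg adjustment over all genes tested, called under 0.05), separately for heart and fibroblasts and jointly for comparisons between tissues. The length offset was a lowess smooth (span 0.3) of each library's log2 deviation on transcript length. Isoform shares were compared with exact permutation tests (scipy 1.17.1). DESeq2 1.42.0 was an alternative. Scripts were tested on simulated data. Promoters came from RefSeq (GRCm38.p6) and transcript lengths from the GENCODE annotation of GRCm38.

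The genes and lists were chosen with earlier results of these data known. Named genes were all isoforms with a sister gene, the c-ring genes, complex II, the called genes with the largest and smallest change per complex and comparison, called genes of the rarer direction, and the highest per kilobase. Ndufa1 and Ndufab1 under the length offset and Ndufc2 for its CG count were named after their values were seen. Intervals cover counting error only.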

Additional observations from a re-analysis of the deposited data

Results flagged for a closer look

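The change from P1 to 4W differed between heart and fibroblasts by a test of the difference itself (edgeR quasi-likelihood test of the interaction, 20650 genes tested). The signed difference, heart minus fibroblasts, was called positive for 56 of the 99 genes and negative for 2. With library size alone these counts were 26 and 3. Among the Cox pairs, the difference of log2 fold changes, heart minus fibroblasts, was -1.07 for Cox6a1 and 3.32 for Cox6a2, and -1.14 for Cox8a and 2.88 for Cox8b, so both partners of 2 pairs were called in opposite directions. The change from 14W to 1.5Y differed for 7 genes, each with a positive difference, heart minus fibroblasts.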

How the results depend on the processing

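Of 3824 values of single named genes under the alternatives, 3448 kept their side of the threshold, 275 no longer passed it, 75 newly passed it and 26 changed sign while called in one of the fits. Of the 3448, 208 changed sign but were called in neither fit, among them Cox6a2 at heart 1.5Y (0.66, and -0.12 with the length offset). Counts below are genes called of the 99. Where no share of all genes stands beside a count under an alternative, here or above, the count shows only how the calls move with the setting.

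With at least a 2-fold change the counts were 19 (heart 4W against P1), 0 (heart 1Y), 12 (heart 1.5Y) and, in fibroblasts, 1, 2, 1 and 0 at 4W, 14W, 1Y and 1.5Y. With library size alone they were 21 at heart 4W, 1 at heart 14W, 1 at heart 1Y, 29 for the 4W difference between tissues and 16 for the 1.5Y difference. With the length offset they were 2 (heart 14W), 8 (heart 1.5Y) and 9 (fibroblast 4W), and with the offset by the median transcript, chosen after seeing the data, 2, 7 and 10, with 1 at fibroblast 1Y, 1 at fibroblast 1.5Y and 4 for the 1.5Y difference. Fitting the compared groups alone gave 22 at heart 1Y and 2, 13 and 4 in fibroblasts at 14W, 1Y and 1.5Y. Median-of-ratios size factors and no filter each gave 1 at heart 1Y, and 10 counts in every sample gave 4 at heart 1Y, 5 and 4 in fibroblasts at 1Y and 1.5Y and 12 for the 1.5Y difference. DESeq2 gave 1 (heart 14W), 7 (heart 1Y), 9, 9 and 7 (fibroblast 14W, 1Y, 1.5Y) and 14 (1.5Y difference).

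Within a tissue, same-numbered samples of different ages did not deviate together (correlations of -0.08 to 0.03). Deviations from a mean of so few samples cancel, so this check is weak. Whether same-numbered heart and fibroblast samples pair was not checked. With the replicate block the counts were 0 at heart 1Y, 0 and 0 at fibroblast 1Y and 1.5Y and 2 for the 1.5Y difference, and with block and length offset 1 (heart 14W), 1 (heart 1Y), 6 (heart 1.5Y), 6 (fibroblast 4W), 0 and 0 (fibroblast 1Y, 1.5Y) and 1 (1.5Y difference). No block could be fitted for fibroblast 14W against 4W, which share no number.

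Leaving out each sample gave 48 to 72 at heart 4W, 0 to 1 at heart 14W, 0 to 3 at heart 1Y and 25 to 72 at heart 1.5Y. In fibroblasts it gave 9 to 20, 0 to 6, 0 to 4 and 0 to 3 in order of age, and between tissues 93 to 96, 41 to 65 (4W difference) and 2 to 11 (1.5Y difference). The 4W gains in isoform share were 19.9 to 22.9 points (Cox6a2), 37.1 to 39.4 (Cox7a1) and 36.9 to 42.2 (Cox8b).

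Signs changed at heart 4W with library size alone for Uqcrc2 (-0.0088) and Cox7b (-0.022). At heart 1.5Y they changed, given as length offset, median transcript and block with offset, for Atp5g3 (-0.15, -0.10 and -0.15), Cox5a (-0.18, -0.14 and -0.18), Uqcrb (-0.24, -0.22 and -0.25), Cox8b (-0.15, -0.15 and -0.15) and Cox7a1 (-0.60, -0.55 and -0.60, called in each). They changed with the length offset and with block and offset for Cox8a (-0.023 and -0.022) and Sdhd (-0.011 and -0.013), and with the median transcript for Cox6b1 (-0.064) and Ndufa4 (-0.067). Cox6a1 between tissues was at -0.26, -0.16 and -0.26. The offsets remove a trend shared with other genes of the same length, and no other cause was tested.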

Other observations

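The share of counts from genes of the mitochondrial genome, which encodes the remaining chain subunits and the mitochondrial ribosomal RNA, did not run parallel to the nuclear genes. In heart it was 12.2% ± 1.44 (SD, n = 3) at P1, 20.6% ± 5.95 at 4W, 30.6% ± 3.51 at 14W, 31.8% ± 2.23 at 1Y and 21.2% ± 4.55 at 1.5Y, so it was highest at 14W and 1Y, while the nuclear chain genes had their highest mean share at 1.5Y. In polyA RNA this share depends on how mitochondrial transcripts were captured, which was not tested.

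A few chain genes stood apart in the 2 fibroblast samples of 14W. Atp5l was at 29.3 and 32.8 CPM there and between 5.62 and 17.1 CPM in the other 10 fibroblast samples. Ndufs5 was at 13.8 and 16.9 CPM there and between 2.23 and 9.06 CPM in the others. Uqcrq was lower there, at 15.4 and 11.4 CPM, against 16.3 to 35.7 CPM. These genes were chosen after their values were seen. Markers of other cell types also stood apart, with macrophage markers at 24.95 to 37.2 CPM at 14W and 235 to 353 CPM at 4W and smooth muscle and pericyte markers at 299.9 to 421 and 56.3 to 160 CPM, while endothelial markers overlapped (1230 to 1497 and 576 to 1858 CPM). Their part in these values was not tested.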
